A study of Mus musculus with 27 samples.

Results

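The genes described are 10 genes of skeletal and pharyngeal muscle, measured in mouse hearts at E11.5: Myf5, Myod1, Myog, Msc, Acta1, Ckm, Mylpf, Chrna1, Chrng and Myh3. They were taken by name from the platform's gene symbols, out of 19935 genes with a symbol of their own, and each had 1 probe set. The values are log2 signals, so a difference of 1 is a doubling, from RNA of whole hearts on 27 arrays. The hearts were Tbx5+/- Brg1 +/- (n = 3), Tbx5+/- (n = 5), Nkx2-5+/- Brg1+/- (n = 3), Nkx2-5+/- (n = 4), Brg1+/- (n = 6) and wild type (n = 6), all dissected at E11.5 from mice of a C57Bl/6/BLKSW mixed strain. The mutants lacked 1 copy of the named genes in the series' own account. Tbx5 and Nkx2-5 are cardiac transcription factors, and Brg1, encoded by Smarca4, is the motor ATPase of a chromatin remodelling complex that slides and evicts nucleosomes. The labels do not say which alleles were used, whether embryos were pooled or which came from the same litter, so p-values measure the spread between these arrays.

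Skeletal muscle of the trunk and limbs comes from somites, and muscle of the jaw, face and throat from the core of the pharyngeal arches, which lie next to the outflow tract of the embryonic heart. In both, Myf5 and Myod1 commit cells to the muscle fate, Myog drives their differentiation, and the contractile, metabolic and acetylcholine receptor genes follow. Msc (musculin) encodes a related factor of pharyngeal muscle precursors. Acta1, the skeletal muscle alpha-actin, and Ckm, the muscle creatine kinase that buffers ATP, are also transcribed in developing heart muscle, whereas the myogenic factors are not part of the heart muscle programme. RNA of a whole heart sample therefore can hold Acta1 and Ckm transcripts of heart muscle and transcripts of any skeletal or pharyngeal muscle precursors dissected with it. In such RNA, fewer cells of a type and less RNA per cell cannot be told apart.

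The promoters of Acta1, Ckm and Myog are shown with the motifs classically tied to muscle transcription. Within genotypes, Acta1 and Ckm had the highest correlations of the set with the heart muscle genes. Myog had a negative one, as did Myf5, Myod1, Msc, Chrna1 and Myh3, and that of Myog was -0.06 without 2 arrays. None passed the adjusted threshold. The promoters run from 250 bases before to 50 bases after the RefSeq start of the gene (GRCm38.p6), 5′ to 3′ on the gene's strand. Matches are in capitals: the E-box CANNTG, bound by the myogenic factors, the CArG box, bound by serum response factor, and TATAAA, the letters of a TATA box. Acta1 lies at chr8:123894726-123895025 on the minus strand, Ckm at chr7:19410844-19411143 on the plus strand and Myog at chr1:134289754-134290053 on the plus strand.
Acta1: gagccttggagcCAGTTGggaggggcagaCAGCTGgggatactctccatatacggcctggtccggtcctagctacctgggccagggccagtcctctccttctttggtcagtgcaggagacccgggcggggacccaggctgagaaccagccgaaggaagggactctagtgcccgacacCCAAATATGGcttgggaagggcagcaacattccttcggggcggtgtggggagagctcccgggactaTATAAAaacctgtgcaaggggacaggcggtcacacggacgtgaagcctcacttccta
Ckm: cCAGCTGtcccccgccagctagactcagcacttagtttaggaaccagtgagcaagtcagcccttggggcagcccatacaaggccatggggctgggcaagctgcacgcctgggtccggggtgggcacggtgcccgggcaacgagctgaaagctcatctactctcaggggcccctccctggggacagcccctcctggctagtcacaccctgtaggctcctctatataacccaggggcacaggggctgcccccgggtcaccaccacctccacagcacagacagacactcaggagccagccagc
Myog: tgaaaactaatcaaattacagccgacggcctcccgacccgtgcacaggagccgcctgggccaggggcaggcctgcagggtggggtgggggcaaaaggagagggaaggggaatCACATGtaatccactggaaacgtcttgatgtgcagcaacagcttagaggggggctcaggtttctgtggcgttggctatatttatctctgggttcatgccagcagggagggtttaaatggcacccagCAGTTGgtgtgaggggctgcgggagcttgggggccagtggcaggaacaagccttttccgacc

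Acta1 held 2 E-boxes, a CArG box and TATAAA in this window, Ckm held 1 E-box and Myog held 2. Sequences were found for 8 of the 10 genes, all but Myod1 and Msc. An E-box stood in 7 of these 8 promoters, against 72.3% of 32851 promoters of the same length, counted on both strands, so that most promoters hold one. The CArG box stood in 1 of 8 (1.63% of all promoters), TATAAA in 3 of 8 (13.6%) and the MEF2 box, the site of another muscle regulator, in 0 of 8 (3.19%). The TATAAA matches began at -7 in Acta1, 21 in Myf5 and -29 in Myh3, counted from the start of the gene. The MEF2 box was sought only as YTAWWWWTAR, where Y is C or T, W is A or T and R is A or G. A stretch that differed from it in the last base, such as ctatatttat in Myog, was not counted. A match is a stretch of letters and not a bound site.

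The arrays were first set against their labels. Genes of heart muscle (25 genes such as Actc1, Myh6, Myl7 and Nppa) gave strong signals, with a median level of 11.83. Of these, 24 of 25 were above the 95th percentile of the receptor genes described next, as were most genes on the array. Smarca4 was at 9.32 ± 0.13 in Brg1+/- hearts and 10.07 ± 0.07 in wild-type hearts (SD, n = 6 each). Smarca4 and Nkx2-5 went against the label on 1 array each: Smarca4 was at 10.01 in Tbx5+/- Brg1 +/- replicate 3, within the wild-type range, and Nkx2-5 was at 9.40 in Nkx2-5+/- replicate 3, against 8.48, 8.48 and 8.63 in the other Nkx2-5+/- arrays, while Smarca4 was low in it, at 9.57. In Nkx2-5+/- Brg1+/- hearts Nkx2-5 was at 9.03, 9.235 and 8.85, and replicate 2 lay just above the lowest wild-type heart, at 9.17. Tbx5 did not separate the genotypes: it was at 8.61 ± 0.10 in Tbx5+/- Brg1 +/- hearts (n = 3), 8.80 ± 0.17 in Tbx5+/- hearts (n = 5) and 8.57 ± 0.20 in wild-type hearts (SD, n = 6), with each of the 8 mutant arrays within the wild-type range. The Tbx5 labels are therefore not checked by these arrays, and it is not known whether the probe set lies in the deleted part of the gene. Values without single arrays among these are given beside the results they change.

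Whether each gene gave a signal at all was judged against 1193 olfactory and vomeronasal receptor genes, which few cells outside the nose transcribe. Their mean signals had a median of 3.68 and a 95th percentile of 5.29, and the highest was 7.76. Of the 10 muscle genes, 7 had a mean above that percentile, as most genes on the array did. Of all 19935 genes, 25.7% had a mean at or below that of Myh3, which lay under the percentile. For Msc, the lowest of the 7, the share was 37.8%. It was 46.7% for Myod1, so Myod1, Chrng, Myog and Msc lay below the median gene. Acta1 stood far above the receptor genes at 11.11 (10.02 to 11.72 over the 27 arrays), and 0% of them reached it. Ckm averaged 7.34 (6.58 to 8.30), a level reached by 0.252% of the receptor genes. Mylpf, the regulatory light chain of fast skeletal myosin, averaged 6.58 and Myod1 6.328, each reached by 0.335%. Chrng, the fetal gamma subunit of the acetylcholine receptor, averaged 5.91, Myog 5.78 and Msc 5.77, reached by 1.34%, 1.84% and 1.84%. These genes lie in the upper tail of the receptor genes rather than beyond it, so that the signal alone does not show a transcript.

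The remaining 3 genes had a mean below that percentile. Myf5, the earliest of the myogenic factors, averaged 4.16 and was above the 95th percentile on 0 of 27 arrays, with 29.6% of the receptor genes at or above its mean. Chrna1, the alpha subunit of the muscle acetylcholine receptor, averaged 4.80, a level reached by 12.2% of the receptor genes, and passed the percentile on 1 array. Myh3, the embryonic myosin heavy chain, averaged 5.09, reached by 7.38%, and passed it on 5. A transcript of these 3 genes was not detectable above the receptor genes at this precision. The background of a probe set also depends on its base composition, which was not measured here.

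**Figure D1:**
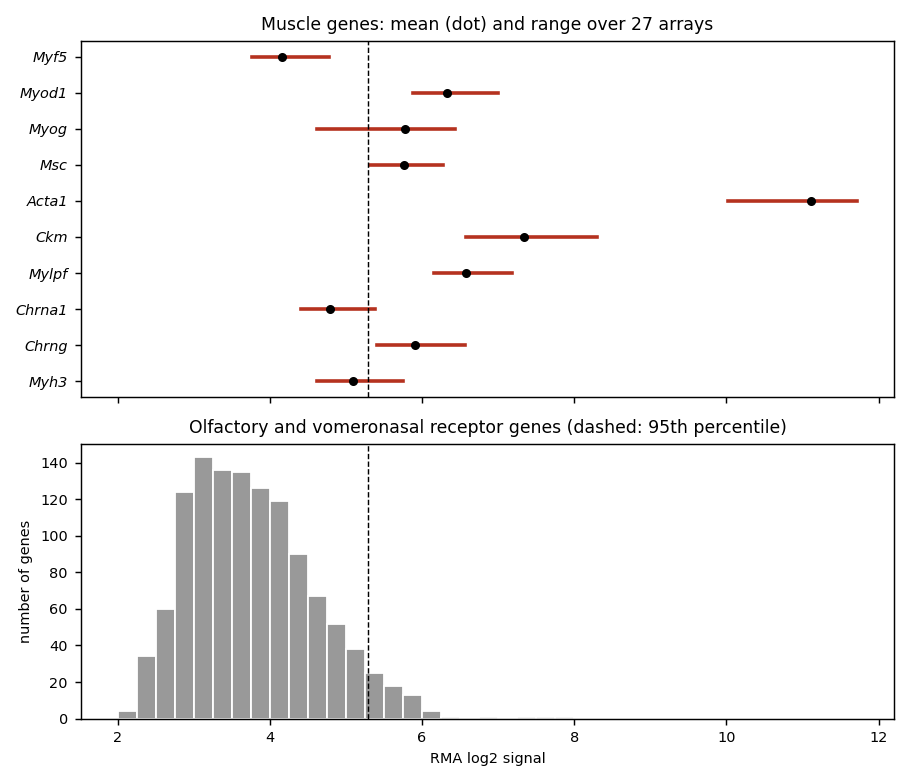
Top, RMA log2 signal of each muscle gene, with the mean as a dot and the range over 27 arrays as a line; bottom, number of olfactory and vomeronasal receptor genes by mean log2 signal in steps of 0.25. The dashed line is the receptor genes' 95th percentile, 5.29: Acta1 and Ckm lie to its right on every array, and Myf5 lies to its left on every array.

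The wider skeletal muscle list gave a similar spread of levels. Most genes on the array passed the percentile too, as said above. Of 30 other differentiation genes, 24 had a mean above the percentile and 6 did not (Myf6, Chrnd, Musk, Myh1, Myh2 and Neb). The highest of the 30 were Casq1, at 10.58, and Rbm24, at 10.04, both known to be transcribed in embryonic heart muscle as well, and Mef2c, a factor of both muscle types, was at 8.57. Of 13 regulators of pharyngeal and somitic muscle, 12 were above it, led by Tcf21, a factor of pharyngeal muscle precursors that also acts in the epicardium, at 9.47.

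Ckm was the only one of the 10 genes to pass the test for any difference among the 6 genotypes (limma F-test, F = 7.88, Benjamini-Hochberg adjusted p = 0.0151), as 3.19% of all genes did. Acta1 had an adjusted p of 0.113 in the same limma test and Chrng 0.124. The plot of signals by array shows the 27 values of each gene.

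**Figure D2:**
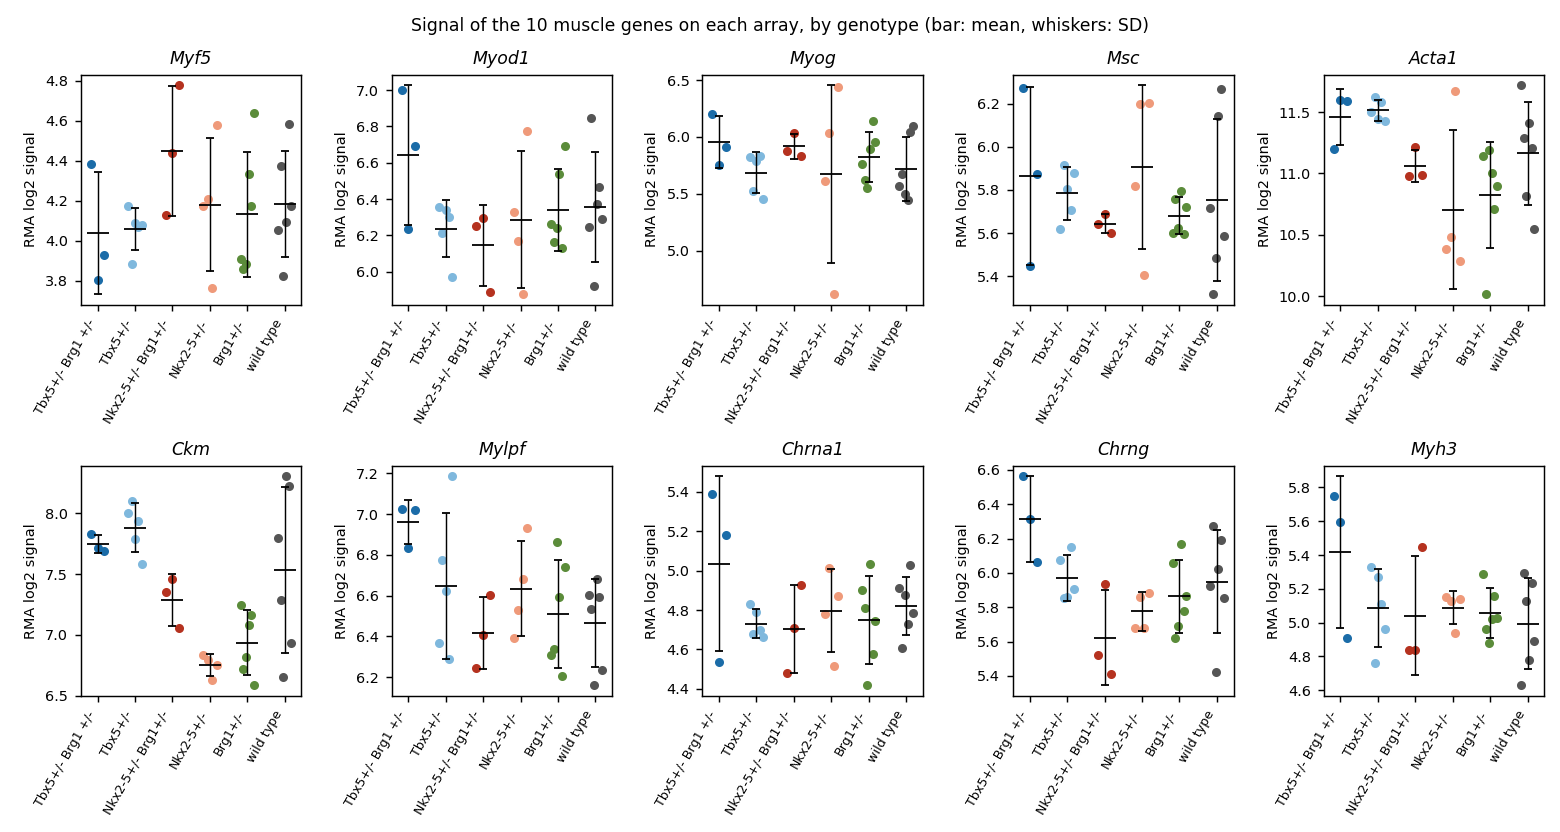
RMA log2 signal (vertical axis, scaled separately for each gene) of the 10 muscle genes on each of the 27 arrays (points), by genotype, with the mean as a bar and the SD as whiskers. Ckm lay between 6.62 and 6.83 in the 4 Nkx2-5+/- hearts and spread from 6.65 to 8.30 in the 6 wild-type hearts.

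In Nkx2-5+/- hearts, Ckm signals were 6.83, 6.79, 6.62 and 6.75, against a lowest of 6.65, a median of 7.54 and a highest of 8.30 in wild-type hearts. The 4 mutant hearts lay together at the bottom of the wild-type range, and the groups overlapped through 1 wild-type heart. Ckm fell by 0.78 on the log2 scale (SE 0.22, 95% interval -1.23 to -0.33, limma adjusted p = 0.0294), a signal 1.72-fold lower. It was the only one of the 10 genes called in this comparison, where 7.89% of all genes were called and 5.16% were called lower, so 1 of 10 is near the background. The call was lost when any 1 of wild-type replicates 1, 4 and 5, or of Nkx2-5+/- replicates 1, 2 and 4, was left out (differences of -0.63 to -0.81, limma adjusted p 0.055 to 0.117).

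The wild-type hearts were themselves split in Ckm signal. Replicates 1, 4 and 5 were at 7.80, 8.30 and 8.23, and replicates 2, 3 and 6 at 7.29, 6.65 and 6.93. The mean of the 25 heart muscle genes ran the same way, at 11.41, 11.52 and 11.39 in the first set and 11.08, 10.97 and 11.15 in the other. The wild-type SD of Ckm, 0.68, was the largest of any genotype, against 0.09 in Nkx2-5+/- hearts.

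Acta1 signals were 10.38, 10.48, 11.67 and 10.28 in Nkx2-5+/- hearts, against a lowest of 10.54, a median of 11.25 and a highest of 11.72 in wild-type hearts. In this group 3 hearts lay below every wild-type heart, and the other, replicate 3, is the array whose Nkx2-5 signal went against its label. With all arrays Acta1 differed by -0.46 (SE 0.23, limma adjusted p = 0.239). Without Nkx2-5+/- replicate 3 the difference was -0.78 with a limma adjusted p of 0.00632, so that 1 array decides the call. Ckm, at 6.62 in that array, was as low there as in the other 3, and without it the difference was -0.74 (limma adjusted p = 0.0287).

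The other 8 genes differed between Nkx2-5+/- and wild-type hearts by -0.17 (Chrng) to 0.17 (Mylpf), with limma adjusted p between 0.52 and 0.995. The median over all 10 genes was -0.04, and over all genes tested -0.01. For Myod1 the difference was -0.07 with a 95% interval of -0.41 to 0.27, and for Myog -0.05 with -0.48 to 0.39, so moderate changes in either direction lie within the error.

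Other genes of the same kinds were set beside these. In Nkx2-5+/- hearts 24 of the 25 heart muscle genes were below wild type, with a median difference of -0.55. Of the 25, 17 were called lower and 0 higher, where 5.16% of all genes were called lower. Among the called genes were Casq2 (-1.06), which stores calcium in the sarcoplasmic reticulum, and Tnnt1 (-1.02), the slow skeletal troponin T, with limma adjusted p of 0.00703 and 0.00763. A further list held 16 genes whose muscle isoform is shared by embryonic heart and skeletal muscle, 5 of them also in the heart list. Of the 16, 14 were called lower and 0 higher, and all were below wild type, with a median of -0.80. Of the 30 other skeletal muscle differentiation genes, 1 was called lower, Klhl41 (-0.77, limma adjusted p = 0.00878), a sarcomere-associated gene. In that list 13 were below wild type and 17 above, and the median was 0.01. Of the 13 pharyngeal and somitic regulators, 1 was called lower, Tcf21 (-0.45, limma adjusted p = 0.0189), with 7 below wild type and 6 above.

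Erythroid genes moved in the same comparison: 13 of 13 were above wild type in Nkx2-5+/- hearts, with a median difference of 1.37. Of these, 6 were called higher, where 7.89% of all genes were called in either direction. The list's mean ranged from 9.03 to 11.09 in Nkx2-5+/- hearts and from 8.34 to 10.08 in wild-type hearts. With that mean as a covariate the Ckm difference was -0.50 (limma adjusted p = 0.601). With the heart muscle mean as a covariate, chosen once the values had been seen, it was -0.34 (limma adjusted p = 0.973). The part of blood content in the Ckm result was not tested beyond these fits.

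The Ckm difference seen with loss of a Brg1 copy was positive in hearts lacking a copy of Nkx2-5 and negative in hearts with both. Neither difference was called, and the interaction of the 2 was called in some settings only. In Nkx2-5+/- Brg1+/- hearts Ckm was at 7.35, 7.46 and 7.05, above each of the 4 Nkx2-5+/- hearts, a difference of 0.54 (SE 0.26, limma adjusted p = 0.322). Groups separated in that direction for 4.13% of all genes. In Brg1+/- hearts Ckm had a lowest signal of 6.58, a median of 6.95 and a highest of 7.25, against 6.65, 7.54 and 8.30 in wild-type hearts, a difference of -0.60 (SE 0.20, limma adjusted p = 0.409). The first difference minus the second, the interaction, was 1.13 (SE 0.33, 95% interval 0.47 to 1.80, limma adjusted p = 0.0411). Ckm was the only one of the 10 genes called for it, where 4.95% of all genes were called and 2.23% were called positive.

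That interaction was called in 23 of 39 alternative settings and stayed positive in all 39, between 0.63 and 1.31. It was not called after a further quantile normalization (1.06, limma adjusted p = 0.0534) or with array medians equalised (1.05, limma adjusted p = 0.0568). Nor was it called with only the compared arrays in the fit (1.13, limma adjusted p = 0.0935), with the erythroid mean as a covariate (0.63, limma adjusted p = 0.9998) or with the heart muscle mean as a covariate (0.66, limma adjusted p = 0.604). Without Nkx2-5+/- Brg1+/- replicate 2 it was 1.05 (limma adjusted p = 0.127). Acta1 had an interaction of 0.69 (limma adjusted p = 0.249), and 1.02 without Nkx2-5+/- replicate 3 (limma adjusted p = 0.0157). Of the heart muscle genes, 25 of 25 had a positive interaction and 2 were called, with a median of 0.66. Of the shared isoforms 5 of 16 were called, and of the 13 regulators only Tcf21 (0.84, limma adjusted p = 0.0166). The erythroid genes went the other way, with 13 of 13 called negative and a median of -2.53.

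Against wild type, 0 of the 10 genes were called in Brg1+/- hearts (0.01% of all genes), in Tbx5+/- hearts (0%), in Tbx5+/- Brg1 +/- hearts (0%) or in Nkx2-5+/- Brg1+/- hearts (0.0351%). At an unadjusted p under 0.05 in limma, 1, 0, 3 and 1 of the 10 passed, where 9.71%, 3.95%, 4.38% and 7.39% of all genes did. Likewise 0 were called in Tbx5+/- Brg1 +/- against Tbx5+/- hearts (0%), in Nkx2-5+/- Brg1+/- against Nkx2-5+/- hearts (0.0401%) and for the Tbx5 by Brg1 interaction (0%), where 2, 1 and 1 passed unadjusted against 2.48%, 15.4% and 3.04% of all genes. All these comparisons with wild type share the same 6 wild-type arrays.

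**Figure D3:**
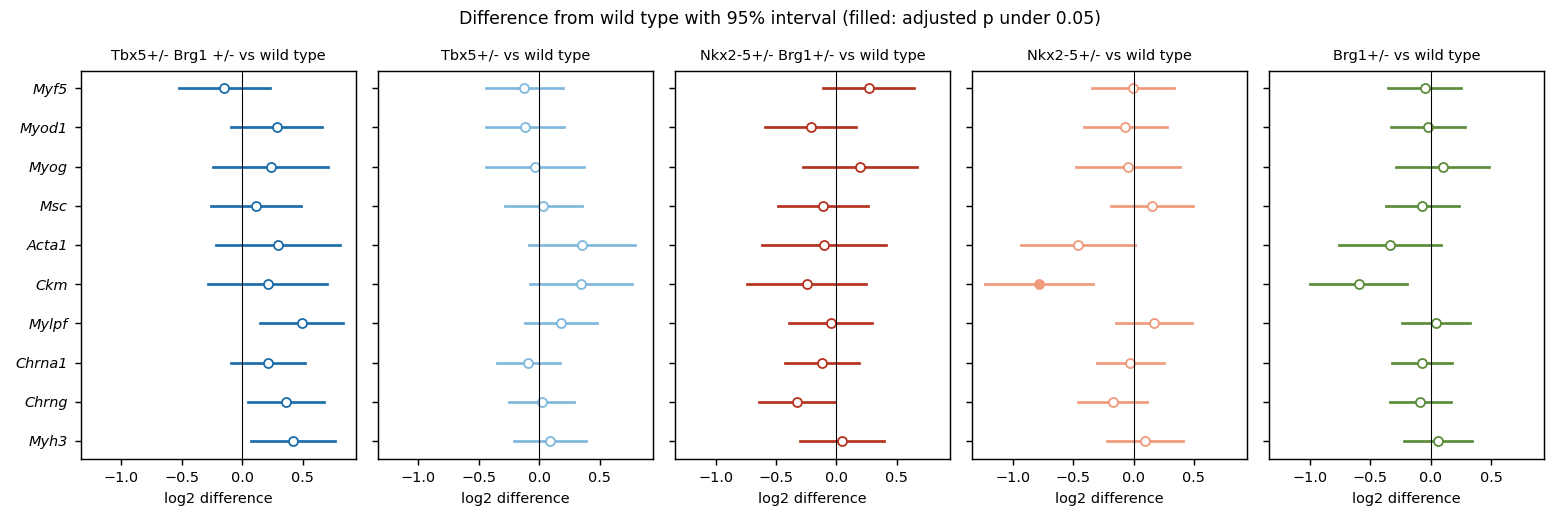
Log2 difference of each mutant genotype from wild type (horizontal axis) for the 10 muscle genes, with 95% intervals from the limma fit; filled points have an adjusted p under 0.05. Ckm in Nkx2-5+/- hearts, at -0.78, is the only filled point.

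In Tbx5+/- Brg1 +/- hearts, 9 of the 10 genes were above wild type, all but Myf5, with a median difference of 0.26 against 0.01 over all genes, and none passed the test. The differences of Mylpf (0.49), Myh3 (0.42) and Chrng (0.36) had the smallest limma p, 0.00658, 0.0183 and 0.0244, each with an adjusted p of 0.979. Mylpf signals were 7.03, 6.84 and 7.02 in Tbx5+/- Brg1 +/- hearts, against a lowest of 6.16, a median of 6.56 and a highest of 6.68 in wild-type hearts. All 3 mutant hearts lay above the wild-type hearts, as for 1.39% of all genes in this direction, but a Tbx5+/- heart reached 7.18. Chrng signals were 6.56, 6.32 and 6.06 in Tbx5+/- Brg1 +/- hearts, against a lowest of 5.42, a median of 5.97 and a highest of 6.27 in wild-type hearts, and the groups overlapped.

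Replicate 3 of the Tbx5+/- Brg1 +/- group, whose Smarca4 signal went against its label, was the lowest of the 3 in Myh3, at 4.91, and in Chrng, at 6.06, and lay beside replicate 1 in Mylpf, at 7.02. Without it the difference from wild type was 0.68 for Myh3 (limma adjusted p = 0.712), 0.49 for Chrng and 0.46 for Mylpf (limma adjusted p = 0.999 for both). Replicate 1 held the highest signal of the 27 arrays in Myod1 (7.002), Msc (6.28), Chrna1 (5.39), Chrng (6.56) and Myh3 (5.75). Of the 30 other skeletal muscle genes 25 were above wild type in this genotype and 0 were called, with a median of 0.10. The Tbx5 by Brg1 interaction was above 0 in 10 of 10 genes, from 0.03 (Myf5) to 0.46 (Ckm), with a median of 0.28 against 0.03 over all genes and a limma adjusted p of 1 for each.

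Ranked by mean, Ckm and Acta1 put the genotypes in the same order: Tbx5+/-, Tbx5+/- Brg1 +/-, wild type, Nkx2-5+/- Brg1+/-, Brg1+/- and Nkx2-5+/-. For Ckm the means were 7.88 ± 0.20, 7.75 ± 0.07, 7.53 ± 0.68, 7.29 ± 0.21, 6.94 ± 0.27 and 6.75 ± 0.09 (SD). For Acta1 they were 11.52 ± 0.08, 11.46 ± 0.23, 11.16 ± 0.42, 11.06 ± 0.13, 10.83 ± 0.43 and 10.71 ± 0.65 (SD). The order was not particular to these genes. The mean of the heart muscle list followed it (11.36, 11.31, 11.25, 11.10, 11.05 and 10.69), as did that of the shared isoforms (10.14, 10.08, 9.93, 9.73, 9.69 and 9.17). Neighbours in the order of means overlapped in range for each of the 10 genes.

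Variation between hearts of the same genotype was next compared with the noise of the receptor genes. Their within-genotype SD had a median of 0.21 and a 95th percentile of 0.32. Acta1 (0.39), Ckm (0.38) and Myog (0.36) varied more than that percentile, and the other 7 genes, at 0.22 (Chrna1) to 0.28 (Myod1), did not. For Myog 1 array made much of the spread: Nkx2-5+/- replicate 3, at 4.62, held its lowest signal of all 27 arrays. Acta1 also had its largest SD of any genotype in Nkx2-5+/- hearts (0.65). There the same array, at 11.67, lay apart from the others, at 10.28 to 10.48. The spread of Acta1 without it was not computed.

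How the genes varied together was measured over the 27 arrays after subtracting each genotype's mean, with 100000 permutations of the arrays within genotypes and adjustment over 105 relations (45 pairs of the 10 genes and the 10 genes with the means of 6 lists). No pair passed an adjusted p of 0.05, and 35 of 45 pairs had a positive r. Myf5 and Myog gave r = 0.67 and rho = 0.67 (permutation p = 0.00056, adjusted 0.0588, rho's permutation p = 0.00053). Without the 2 arrays farthest from the median r was 0.66. Myf5 with Myod1 (r = 0.67, rho = 0.61, adjusted permutation p = 0.0606) and Myod1 with Chrng (r = 0.63, rho = 0.60, adjusted permutation p = 0.0606) were next. Myf5 was above the receptor genes' 95th percentile on 0 of 27 arrays, so its correlations are those of a signal not told from background. With genotype means kept, 6 pairs passed. For every p with genotype means kept, the arrays were permuted over all 27 and not within genotypes, so it also carries the differences between genotypes.

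Acta1 followed the mean of the heart muscle genes, with r = 0.81 and rho = 0.71 (permutation p = 0.00226 and 0.00273, adjusted 0.0606 and 0.0845), and r = 0.65 without the 2 arrays farthest from the median. Ckm gave r = 0.48 and rho = 0.65 (permutation p = 0.00634 and 0.00274, adjusted 0.108 and 0.0845), and r = 0.35 without those. With genotype means kept and arrays permuted across genotypes, r was 0.85 for Acta1 and 0.73 for Ckm (adjusted permutation p = 0.00105 for both). With the erythroid mean the sign was negative: with genotype means kept r was -0.59 for Acta1 and -0.63 for Ckm (adjusted permutation p = 0.0159 and 0.0105), and with them removed -0.44 and -0.40 (adjusted permutation p = 0.197 and 0.184). With the heart muscle mean, and genotype means removed, the myogenic factors gave a negative r. It was -0.28 for Myf5, -0.22 for Myod1 and -0.55 for Myog, none past an adjusted p of 0.05 (adjusted permutation p 0.359 to 0.625). The r of Myog rests on the arrays at its extremes, being -0.06 without 2 of them.

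**Figure D4:**
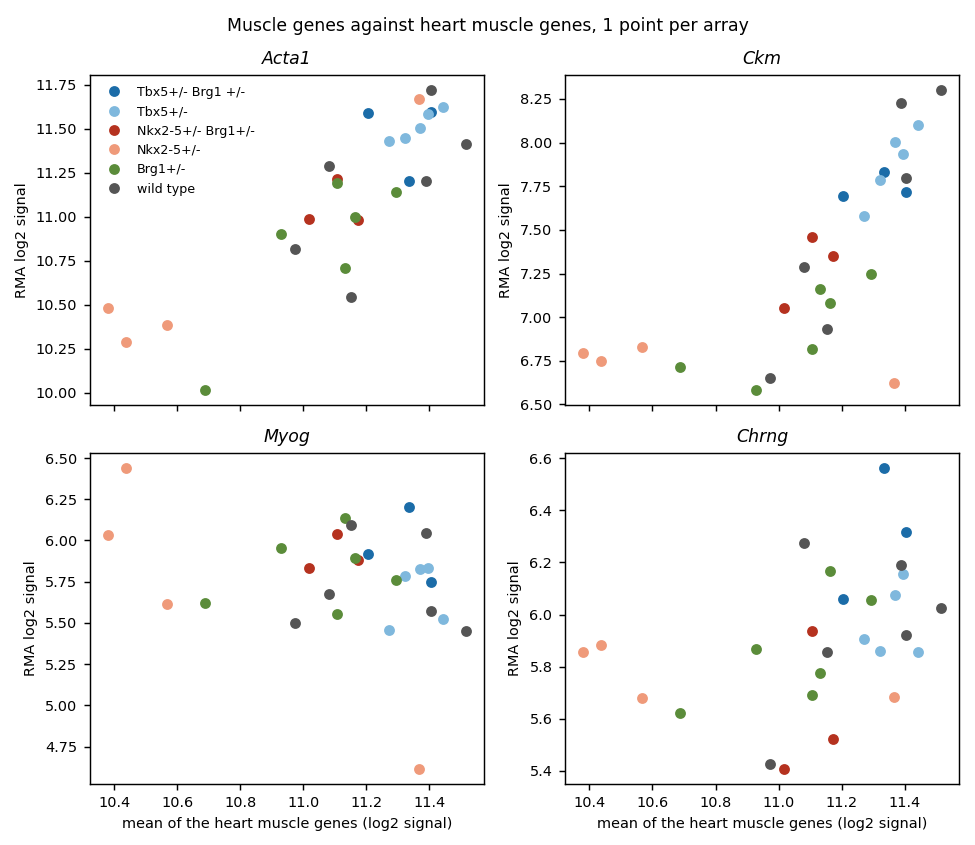
RMA log2 signal of Acta1, Ckm, Myog and Chrng (vertical axes) against the mean log2 signal of the 25 heart muscle genes (horizontal axis), 1 point per array, coloured by genotype. Acta1 and Ckm rise with the heart muscle mean, with r of 0.85 and 0.73 over all arrays, and the lowest Myog point, 4.62, is Nkx2-5+/- replicate 3.

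With the mean of the pharyngeal arch mesenchyme genes (such as Prrx1, Prrx2 and Twist1), r was 0.58 for Myf5, 0.46 for Myod1, 0.55 for Myog, 0.44 for Msc, 0.45 for Chrng and 0.40 for Mylpf, against 0.12 for Chrna1, 0.11 for Myh3, 0.07 for Ckm and -0.11 for Acta1, none past an adjusted permutation p of 0.05 (0.108 for Myf5). Of the 11 genes of that list, 10 were above the receptor genes' 95th percentile, as most genes on the array were. The list's mean ranged from 6.27 to 6.71 over the 27 arrays. None of the 11 was called in any of the 9 comparisons. With the mean of the foregut and pharyngeal epithelium genes, r was 0.43 for Myf5, 0.49 for Myod1, 0.50 for Myog, 0.48 for Msc and 0.39 for Chrna1 and Chrng, against 0.18 for Ckm, 0.16 for Mylpf, 0.03 for Myh3 and -0.20 for Acta1, none past an adjusted permutation p of 0.05 (0.158 to 0.909). Of these genes, Myf5, Chrna1 and Myh3 were not detectable above the receptor genes. The part of such tissues in the signals was not tested.

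The receptor genes also moved a little from array to array, with means between 3.65 and 3.88, and some of the dim muscle genes moved with them. Msc gave r = 0.71 and rho = 0.69 with the receptor mean within genotypes (permutation p = 0.00091 and 0.0022, adjusted over 10 relations 0.0091 and 0.022), and r = 0.63 without the 2 arrays farthest from the median. Chrna1 (r = 0.48) and Chrng (r = 0.52) had an adjusted permutation p of 0.0389 each, with rho of 0.43 and 0.41 (adjusted permutation p = 0.154 and 0.158). Myf5 (r = 0.36), Myod1 (0.34), Myog (0.47), Ckm (0.43), Mylpf (0.15), Acta1 (-0.10) and Myh3 (-0.09) did not pass (adjusted permutation p 0.154 to 0.721). The correlations among the 10 genes were not adjusted for the receptor mean, and its part in them was not tested.

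**Figure D5:**
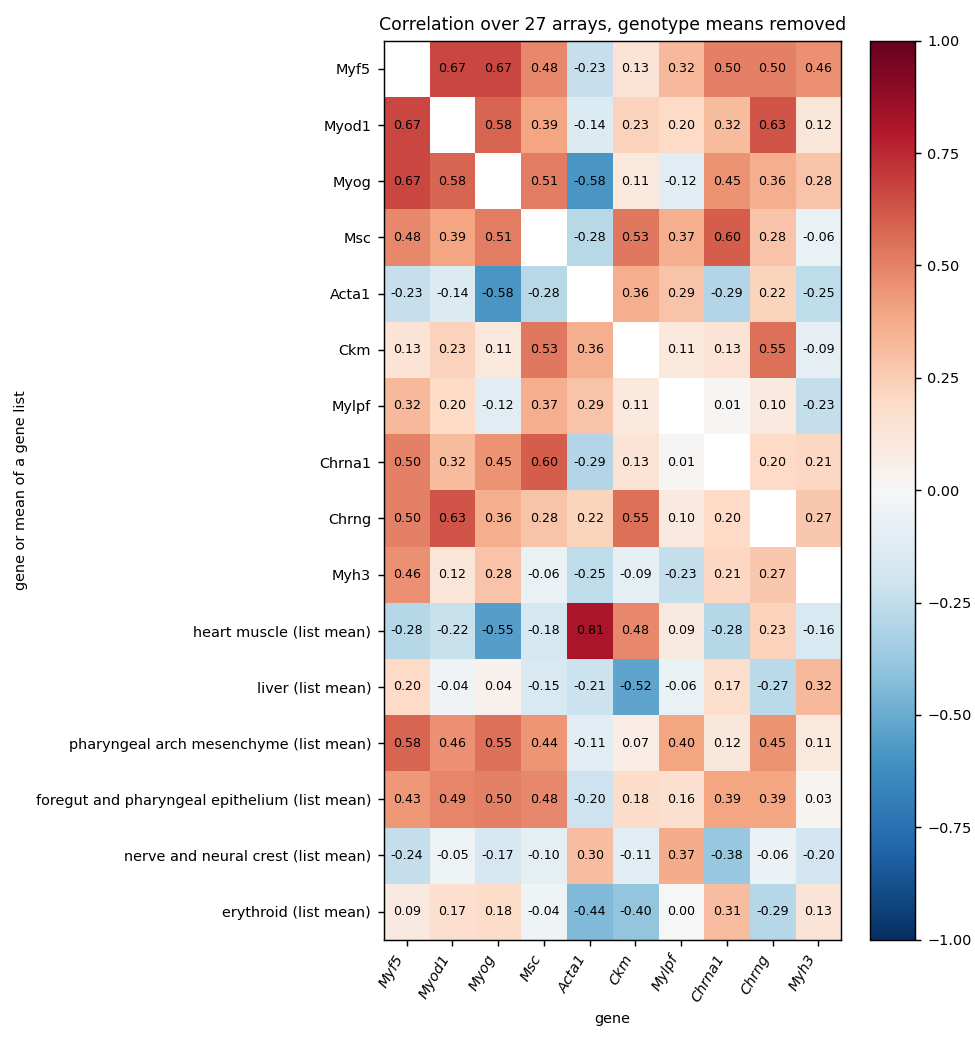
Pearson r over 27 arrays, genotype means removed, between the 10 muscle genes (columns) and the same genes and the means of 6 gene lists (rows), from -1 (blue) to 1 (red). Acta1 with the heart muscle mean, at 0.81, is the highest value, and Myf5, Myod1 and Myog are positive with each other. Myf5 was not detectable above the receptor genes.

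Over all 19935 genes, the genes most like each member within genotypes (Pearson r, n = 27 arrays) differed in kind. Nearest to Acta1 were Asb2 (0.92), a muscle ubiquitin ligase subunit, Cyc1 (0.91), a mitochondrial cytochrome, and Hspb1 (0.90), a small heat shock protein. Nearest to Ckm were Mlf1 (0.86), Casq2 (0.84) and Rogdi (0.82). Nearest to Myf5 were Hoxb5 (0.77), Klk13 (0.76) and Hoxd3 (0.76), and to Msc Rasal1 (0.87), Ccdc177 (0.86) and Dlx3 (0.84). The fetal receptor subunit Chrng was nearest to Tmem171 (0.80), and Mylpf to Aadacl2 (0.74), a gene with a mean signal of 3.53. Myh2, another skeletal myosin heavy chain, was among the 3 nearest to Myh3 (0.65).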

How the data were processed

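Biotin-labelled total RNA of each heart sample went onto its own array, per the labels. The deposited log2 signals, of 28815 probe sets on 27 arrays, came from RMA in Affymetrix Power Tools according to the submitters' processing notes, and the values were used unaltered. Array medians lay between 6.18 and 6.33. Arrays hold no counts, so their number limits the precision. The genome build is not given in the sources used here.

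Probe sets with 1 gene symbol (21780) were kept, and a gene's probe set with the highest mean was used, which left 19935 genes. All genes and arrays entered 1 limma 3.58.1 fit in R 4.3.3 with a mean per genotype, with Benjamini-Hochberg adjustment of two-sided p over all genes, separately for 9 comparisons and for an F-test. Genes with an adjusted p under 0.05 were called. The interaction subtracts what Brg1 loss did in hearts with both copies of the factor from what it did in hearts lacking a copy. The 10 genes, the lists and the tests were chosen with earlier results of these data known. From each list, only called genes or those with the smallest p were named with a difference, and genes named for their level, Myog's 1 array and the receptor mean were chosen after their values were seen.

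The fit was tested on simulated data: in Nkx2-5+/- against wild type, 56.7%, 97.0% and 100% of genes changed by log2 0.5, 1 and 2 were called. For log2 0.5 it was 31.3% in Nkx2-5+/- Brg1+/- against Nkx2-5+/-, 19.4% for the Nkx2-5 by Brg1 interaction and 11.9% for the Tbx5 by Brg1 interaction. The simulated noise was drawn separately for each gene and array. It held no outlying array and no variation shared by many genes, so the rates in the real data may differ.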

Additional observations from a re-analysis of the deposited data

Results flagged for a closer look

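In Nkx2-5+/- replicate 3, Acta1 was at 11.67, against 10.28 to 10.48 in the other 3 hearts, a gap of 0.858 of the group's range. Myh3 was at 4.94 in the same array, against 5.13 to 5.15, a gap of 0.89 of the range. Among 40 groups of 4 to 6 values, 2 held such a far value, and chance gives about 1 in 20. In this array Nkx2-5 went against its label, and the heart muscle mean was 11.37, against 10.38 to 10.57 in the other Nkx2-5+/- arrays. The part of the array's label in these values was not tested. The Ckm difference seen with Brg1 loss was higher in hearts lacking a copy of Nkx2-5 than in hearts with both. The interaction was 1.13 (limma adjusted p = 0.0411). That interaction was called in 23 of 39 alternative settings, and not with the erythroid or the heart muscle mean as a covariate. Of all genes, 4.95% were called for it.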

How the results depend on the processing

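The number of the 10 genes called was 0 in each of the comparisons of Brg1+/-, Tbx5+/- and Tbx5+/- Brg1 +/- with wild type under all settings that were run. For Nkx2-5+/- against wild type it was 1 as reported, 0 with only the compared arrays, the erythroid mean or the heart muscle mean as a covariate, 2 (Ckm and Acta1) with array weights or without both Tbx5+/- Brg1 +/- replicate 3 and Nkx2-5+/- replicate 3, and 0 to 2 with 1 array left out. For the Nkx2-5 by Brg1 interaction it was 1, 0 after a further quantile normalization, with equalised medians, only the compared arrays or either covariate, 2 with array weights or without those 2 arrays, and 0 to 2 with 1 array left out. For Nkx2-5+/- Brg1+/- against wild type it was 0, and 1 with array weights (Chrng, -0.39, limma adjusted p = 0.0367). In the F-test it was 1, then 6 with array weights, 0 with either covariate, 2 without the 2 arrays and 0 to 2 with 1 array left out. Pairs of genes past the threshold numbered 0, and 6 with genotype means kept and arrays permuted across genotypes. The heart muscle covariate was chosen after the data were seen, and the cause of these changes was not tested. Removing the dimmest genes left out Myf5, Chrna1 and Myh3. In no comparison did every pair of same-numbered arrays correlate above 0.1, so the numbers were not taken as pairing; in Nkx2-5+/- Brg1+/- against Nkx2-5+/- all 3 were positive (0.032 to 0.137) and 2 were above 0.1. With the replicate block, the count stayed at 1 for Nkx2-5+/- against wild type (Ckm, -0.84, limma adjusted p = 0.016) and at 1 for the interaction (1.21, limma adjusted p = 0.0143).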

Other observations

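Liver genes averaged 7.74 in wild-type replicate 3, against 5.41 at the lowest in wild-type hearts, and that array held the lowest wild-type Ckm (6.65) and Chrng (5.42). Nerve and neural crest genes averaged 6.97 in Brg1+/- replicate 3, against 5.48 at the lowest in Brg1+/- hearts, and Ckm was at 6.82 in it.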
